A study of Homo sapiens with 23 samples.

Results

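In multiple myeloma, a cancer of plasma cells, the effect of a guide against IRF4 was measured in 4 established cell lines that carry different translocations. The comparison set the response to an IRF4 guide in 2 FGFR3 lines, H929 and OPM2, against that in 2 MAF lines, MM1S and RPMI-8226. It used all 23 libraries of the series, 12 from the FGFR3 lines and 11 from the MAF lines. Each line had been given doxycycline for 48 hours, which induced a guide RNA against IRF4 (21B in the sample names) or a guide called EV, an abbreviation that the labels do not explain. The deposited column names mark every library, EV included, as Cas9, the nuclease that a guide RNA directs to its target. In the FGFR3 lines 6 libraries carried the IRF4 guide and 6 the EV guide. In the MAF lines 6 carried the IRF4 guide and 5 the EV guide, since MM1S had EV replicates 2 and 3 only. Each line and guide thus had 3 libraries, and MM1S with EV had 2. The labels give the line, and the assignment of lines to the pairs follows their known translocations. Whether the cultures were clones or pools, and whether replicates were separate cultures, is not stated in the labels either, and the p-values therefore rest on the spread among libraries alone, which may be technical. The response of a gene in a line was its log2 fold change, IRF4 guide over EV. The difference of responses was the mean response of the FGFR3 lines minus the mean response of the MAF lines, so a positive value means that the gene rose more, or fell less, in H929 and OPM2.

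IRF4 is a transcription factor on which mature plasma cells and myeloma cells depend. It binds DNA weakly by itself, and binds with ETS factors at composite elements, with AP-1 and BATF factors at others, or at the interferon-stimulated response element, a repeated GAAA motif that other interferon regulatory factors also use. Myeloma lines are commonly grouped by the immunoglobulin translocation they carry. In one group the translocation raises the histone methyltransferase NSD2 and often the receptor kinase FGFR3, and in another it raises the transcription factor MAF.

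Levels are given as TMM CPM, the count of a gene relative to its library total after edgeR's trimmed mean (TMM) correction of that total. Library totals ran from 6907390 to 28486960 counts, and 16468 genes were tested in a single model with a mean for each line and guide. FGFR3, the receptor kinase after which the first pair is called, averaged 371 ± 53.8 against 152 ± 22.7 in H929, 1414 ± 223 against 2212 ± 227 in OPM2, 0.4499 ± 0.335 against 1.12 ± 0.147 in MM1S and 4.44 ± 0.169 against 2.51 ± 1.06 in RPMI-8226 (TMM CPM, mean ± SD, IRF4 guide against EV). NSD2 averaged 1146 ± 21.5 against 852 ± 62.3 in H929, 1162 ± 137 against 1491 ± 62.02 in OPM2, 198 ± 5.53 against 332 ± 20.7 in MM1S and 199 ± 6.95 against 220.0 ± 13.4 in RPMI-8226 (TMM CPM, mean ± SD, IRF4 guide against EV), higher in every library of the FGFR3 lines than in any of the MAF lines. MAF averaged 268 ± 26.2 against 178 ± 9.53 in H929, 132 ± 25.9 against 69.6 ± 0.244 in OPM2, 1305 ± 166 against 595 ± 50.9 in MM1S and 887 ± 52.5 against 1345 ± 21.8 in RPMI-8226 (TMM CPM, mean ± SD, IRF4 guide against EV), so it was highest in the MAF lines but was present in the FGFR3 lines too. The plasma cell markers SDC1 and XBP1 were at 307 and 346 TMM CPM or more in each of the 23 libraries.

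IRF4, the targeted gene, fell in all 4 lines, and the difference between the pairs did not pass the test. IRF4 had 579, 773 and 855 TMM CPM with the IRF4 guide and 2182, 2219 and 2196 with EV in H929, and 890.2, 1331 and 897 with the IRF4 guide and 1569.7, 2031 and 1319 with EV in OPM2. IRF4 in MM1S had 279, 287 and 228 TMM CPM with the IRF4 guide and 724 and 641 with EV, and in RPMI-8226 193, 250.1 and 187 with the IRF4 guide and 482, 461 and 409 with EV. With the IRF4 guide no library reached the lowest EV library of its own line in H929, MM1S or RPMI-8226, while the OPM2 groups overlapped. The response of IRF4 (Entrez 3662, chromosome 6, 391752 to 411443 on GRCh38) was -1.58 ± 0.18 in H929 and -0.66 ± 0.18 in OPM2, against -1.37 ± 0.20 in MM1S and -1.10 ± 0.18 in RPMI-8226 (log2, ± SE). Its difference of responses was 0.11 ± 0.19 (edgeR quasi-likelihood test, adjusted p = 0.774). It was 0.57 without H929 and -0.33 without OPM2, neither of them called. The fall was smallest in OPM2 and largest in H929. IRF4 protein was not measured here.

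Across the genome the response differed between the pairs at 4282 of 16468 genes (26.0%), of which 1909 (11.6%) were higher and 2373 (14.4%) lower in the FGFR3 lines, at an adjusted p under 0.05. More of the higher than of the lower calls reached 2-fold, with 717 higher calls of that size (4.35% of all genes tested) and 180 lower ones (1.09% of all genes tested). The balance of directions depended on the scaling. With TMM 44.6% of the calls were higher, with relative log expression (RLE) scaling 53.9% (2250 higher and 1923 lower), and with DESeq2 54.8% (2478 higher and 2047 lower). A difference of pair means may rest on a single line, and of the 4282 calls 2533 came with a called difference between the 2 lines of a pair as well. With each line left out in turn, 523 of the higher and 415 of the lower calls were made all 4 times. The stricter class called separated holds genes whose difference was called and whose 4 single-line differences (H929 or OPM2 minus MM1S or RPMI-8226) were each called the same way. It had 280 higher (1.70%) and 152 lower genes (0.923%), and the lower ones were 94 without OPM2 EV replicate 2. Adding the replicate number to the model as a block common to all lines gave 377 higher and 293 lower genes. A separate block for each line gave 382 higher and 286 lower. The count of lower genes thus depended on whether replicate numbers were used. The labels do not give such a pairing, so the model without a block was kept. With only 2 lines on each side, a permutation of the lines cannot give a two-sided exact p below 0.333, so these results describe these 4 lines and not FGFR3 or MAF myeloma at large.

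The pairs shared much of the response, as the plot of mean responses shows. Over the 10562 genes that reached 1 TMM CPM with either guide in every line, the mean response of the FGFR3 lines and that of the MAF lines had a Pearson r of 0.703. This is a correlation across genes, which are not independent replicates. Between single lines r was 0.740 for H929 and OPM2 and 0.398 for MM1S and RPMI-8226, with 0.480 to 0.633 for lines of different pairs. MM1S and RPMI-8226 thus had the lowest r of the 6 pairs of lines. Of all genes tested, 32.9% were called higher and 26.1% lower in H929 and 23.3% and 20.2% in OPM2, against 19.4% and 15.2% in MM1S and 19.2% and 14.7% in RPMI-8226. The median absolute response was 0.46 in H929 and 0.29 in OPM2, against 0.31 in MM1S and 0.22 in RPMI-8226 (log2).

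**Figure D1:**
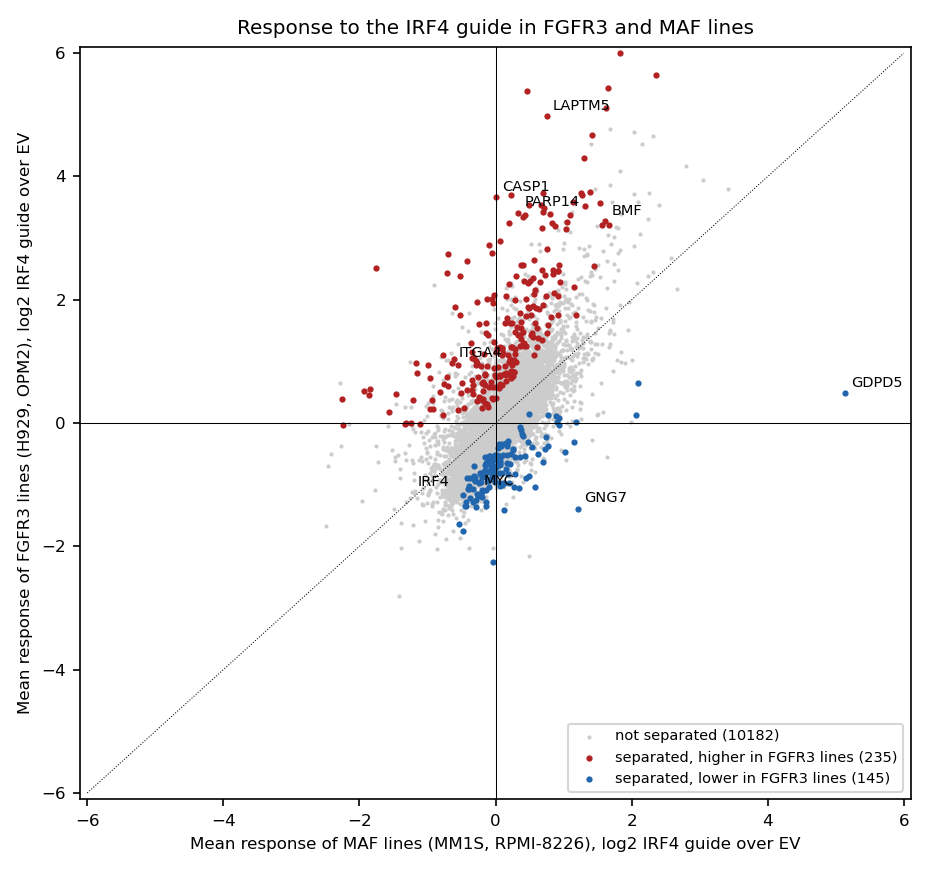
Mean response of the FGFR3 lines (vertical axis) against mean response of the MAF lines (horizontal axis), log2 IRF4 guide over EV, for 10562 genes, with 1 gene held at the limit of 6. Red points are the 235 separated genes higher in the FGFR3 lines and blue points the 145 lower ones among these genes. The dotted line marks equal responses.

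Few separated genes differed in direction. Of the 280 separated higher genes, 73 were called higher in both FGFR3 lines and not called in either MAF line, 71 were called higher in all 4 lines, and 11 were called higher in both FGFR3 lines and lower in both MAF lines. In a further 103 the FGFR3 lines were both called higher and the MAF lines were mixed, and in 8 both MAF lines fell and neither FGFR3 line was called. Of the 152 separated lower genes, 71 were called lower in both FGFR3 lines and in neither MAF line, 14 were lower in all 4 lines, 12 rose in both MAF lines and in neither FGFR3 line, and 7 moved in opposite directions.

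Among the death genes named in the title of the study, BMF differed between the pairs and BCL2L11 did not pass the test. BMF encodes a BH3-only protein that frees the mitochondrial death pathway by binding pro-survival BCL2 proteins. BMF had 472, 494 and 427 TMM CPM with the IRF4 guide and 47.6, 40.00 and 52.7 with EV in H929, and 720.0, 700.4 and 639 with the IRF4 guide and 66.2, 66.9 and 83.7 with EV in OPM2. BMF in MM1S had 806, 805 and 853 TMM CPM with the IRF4 guide and 245 and 227 with EV, and in RPMI-8226 172, 116 and 166 with the IRF4 guide and 63.6, 48.97 and 57.4 with EV. No IRF4 guide library overlapped the EV libraries of its line, and the highest levels with the guide were in MM1S and OPM2. BMF (Entrez 90427, chromosome 15, 40087890 to 40108879) rose by 3.30 ± 0.14 in H929 and 3.24 ± 0.13 in OPM2, against 1.80 ± 0.15 in MM1S and 1.42 ± 0.13 in RPMI-8226 (log2). The difference was 1.66 ± 0.13 (edgeR adjusted p = 1.1e-09), and BMF was separated. Without any single line it stayed between 1.47 and 1.83. With EV, BMF was lower in H929, OPM2 and RPMI-8226 than in MM1S.

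BCL2L11, the gene of the BH3-only protein known as BIM, rose by 0.79 ± 0.08 in H929 and 0.85 ± 0.08 in OPM2, against 0.77 ± 0.09 in MM1S and 1.04 ± 0.08 in RPMI-8226, with a difference of -0.08 ± 0.08 (edgeR adjusted p = 0.535). Of the 10 tested pro-apoptotic members of the BCL2 family 1 was higher (BMF) and 3 were lower. These were BAK1, a pore-forming effector, with a difference of -0.38, BID, which links death receptors to mitochondria, with -0.44, and HRK, a BH3-only protein, with -2.83. HRK had 0 counts in the MM1S EV libraries. Its difference was -0.60 with the floor of 3 counts over that group, and its value without MM1S was 0.34. None of the 5 tested pro-survival members was called by edgeR, and 1 was called higher by DESeq2. At an adjusted p under 0.05 the background was 11.6% higher and 14.4% lower.

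**Figure D2:**
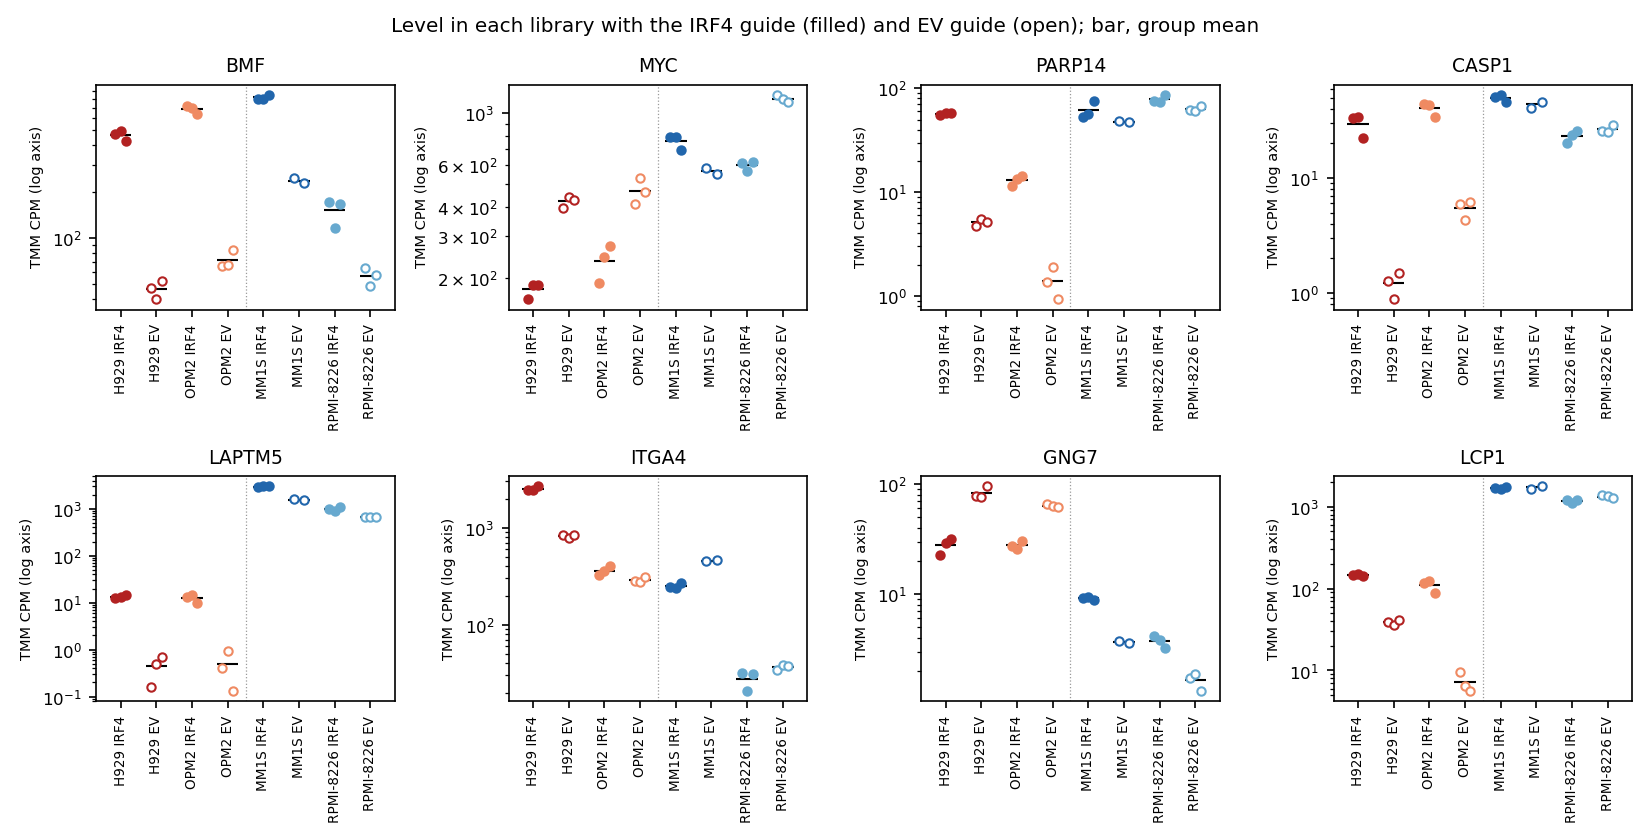
Level of 8 genes in each library (TMM CPM, log axis), with the IRF4 guide (filled) left of EV (open) in each line, the FGFR3 lines left of the MAF lines and a bar at each group mean. PARP14, CASP1, LAPTM5 and LCP1 started low in both FGFR3 lines and were already high with EV in both MAF lines, and ITGA4 and GNG7 moved in opposite directions.

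Interferon-stimulated genes had the most separated members of the lists described here. These genes encode antiviral proteins, and many carry response elements for interferon regulatory factors in their promoters. Of 40 tested members 19 were higher and 3 lower in the FGFR3 lines, 11 of them were separated, all 11 higher, and the median difference was 1.33, or 0.91 with groups at 0 counts set to a floor of 3 counts over the group. All tested genes had a median of -0.03, with 11.6% higher and 14.4% lower. The list rose with the IRF4 guide in each line: its median response was 2.36 in H929 and 1.86 in OPM2, against 0.87 in MM1S and 0.79 in RPMI-8226, with 34 and 26 members called higher in H929 and OPM2, against 25 and 28 in MM1S and RPMI-8226. The shares of all genes called higher were 32.9% in H929, 23.3% in OPM2, 19.4% in MM1S and 19.2% in RPMI-8226. Leaving out a line left between 17 and 24 members of the list higher in the difference.

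PARP14, an ADP-ribosyltransferase of the interferon response, had the smallest p of the list. PARP14 had 55.5, 57.8 and 57.4 TMM CPM with the IRF4 guide and 4.67, 5.500 and 5.13 with EV in H929, and 11.4, 13.3 and 14.2 with the IRF4 guide and 1.37, 1.897 and 0.925 with EV in OPM2. PARP14 in MM1S had 53.03, 56.8 and 75.1 TMM CPM with the IRF4 guide and 48.01 and 47.5 with EV, and in RPMI-8226 75.3, 73.7 and 86.9 with the IRF4 guide and 61.8, 60.98 and 67.6 with EV. With the guide H929 reached the range of the MAF lines, and OPM2 stayed below every MAF line library. The responses were 3.5 ± 0.14 in H929 and 3.32 ± 0.18 in OPM2, against 0.35 ± 0.13 in MM1S and 0.31 ± 0.11 in RPMI-8226, and the difference was 3.08 ± 0.14 (edgeR adjusted p = 3.95e-16). ISG15, a ubiquitin-like modifier, behaved differently in level. ISG15 had 57.98, 59.2 and 36.9 TMM CPM with the IRF4 guide and 17.96, 16.1 and 14.8 with EV in H929, and 6.78, 7.15 and 6.56 with the IRF4 guide and 0.706, 0.237 and 0.484 with EV in OPM2. ISG15 in MM1S had 11.97, 10.3 and 8.45 TMM CPM with the IRF4 guide and 6.52 and 6.25 with EV, and in RPMI-8226 16.4, 20.8 and 17.1 with the IRF4 guide and 15.1, 12.6 and 13.4 with EV. With the guide H929 stood above every other line, and with EV OPM2 was the lowest. Its difference was 2.07 ± 0.21 (edgeR adjusted p = 1.03e-08), and 1.09 without OPM2. IFIT5, an RNA-binding member of the IFIT family, fell in RPMI-8226 where it rose in the FGFR3 lines. IFIT5 had 6.85, 6.27 and 6.29 TMM CPM with the IRF4 guide and 0.719, 0.2500 and 0.559 with EV in H929, and 5.91, 6.78 and 4.44 with the IRF4 guide and 2.01, 2.02 and 1.06 with EV in OPM2. IFIT5 in MM1S had 13.3, 12.8 and 14.8 TMM CPM with the IRF4 guide and 15.3 and 15.7 with EV, and in RPMI-8226 8.56, 9.29 and 10.4 with the IRF4 guide and 14.6, 15.5 and 14.4 with EV. The IFIT5 difference was 3.05 ± 0.21 (edgeR adjusted p = 3.04e-12).

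The other 8 separated members rose in both FGFR3 lines by more than in either MAF line. They were the sensors of cytosolic RNA IFIH1, with a difference of 1.38, and DDX58, with 1.34, the nuclear body protein SP110 (3.04), PARP9 (2.36) and its partner DTX3L (2.28), the GTPase GBP1 (3.05), LGALS3BP (1.66) and XAF1, a binding partner of XIAP. XAF1 had no count in the OPM2 EV libraries, where the IRF4 guide level was at least 8.21-fold higher, and its difference with that floor was 2.55. The values without a line moved by over 1.5 times for IFIH1 (0.83 without OPM2), GBP1 (2.01 without H929), DTX3L (1.18) and PARP9 (1.49). The call of LGALS3BP was lost without 1 EV library of MM1S, replicate 3. The 3 members that were lower in the FGFR3 lines were IFIT2 (-2.02), MX2 (-1.09) and SAMD9 (-0.63), all of which rose in RPMI-8226, by 1.64, 1.46 and 0.88. IFIT2 and MX2 rose in both MAF lines and were not called in either FGFR3 line. The IFIT genes are close relatives, and reads could be split among them in the authors' counting.

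**Figure D3:**
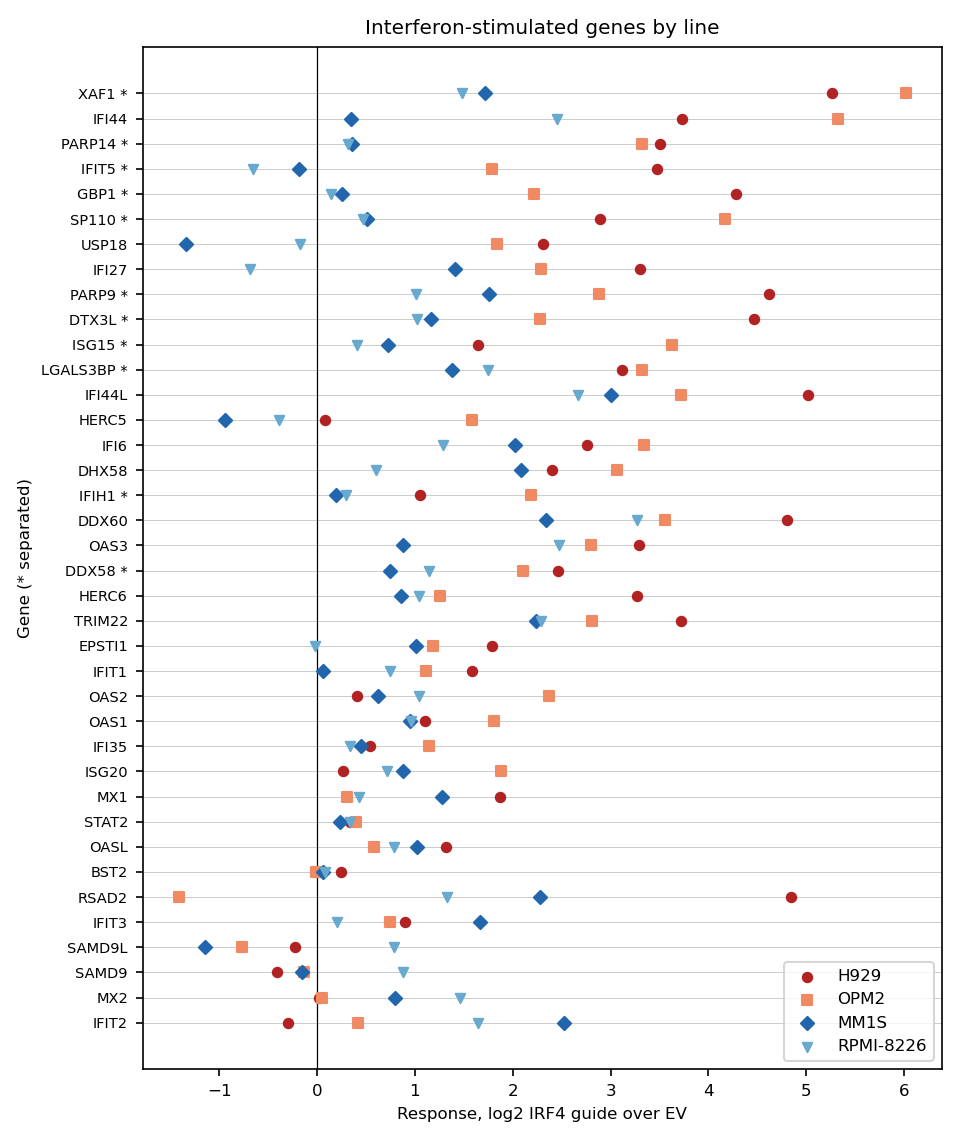
Response of 38 tested interferon-stimulated genes (log2 IRF4 guide over EV) in each line, ordered by their difference of responses, with CMPK2 left out because OPM2 had no counts. Stars mark the 11 separated genes, whose FGFR3 line points (red circles, orange squares) lie right of the MAF line points (blue diamonds, light blue triangles).

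Promoters of 3 separated members and of IFIT1, which was not separated, are shown because they hold the response element that the interferon regulatory factors bind. They are RefSeq sequences of GRCh38.p14 from 250 bases before to 50 after the start site, 5′ to 3′ in the direction of the gene, with each pair of GAAA half-sites separated by any 2 bases in capitals. Both strands were searched, so a match on the other strand reads as a pair of TTTC, and overlapping matches run together. PARP14 is at chr3:122680589-122680888, plus strand, ISG15 at chr1:1013247-1013546, plus strand, IFIT5 at chr10:89414318-89414617, plus strand, and IFIT1 at chr10:89392373-89392672, plus strand.
PARP14: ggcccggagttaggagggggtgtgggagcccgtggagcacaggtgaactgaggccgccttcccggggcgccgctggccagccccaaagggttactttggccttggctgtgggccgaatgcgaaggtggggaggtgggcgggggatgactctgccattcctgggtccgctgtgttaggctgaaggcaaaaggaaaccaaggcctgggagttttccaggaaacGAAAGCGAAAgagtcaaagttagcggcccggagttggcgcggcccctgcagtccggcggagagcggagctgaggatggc
ISG15: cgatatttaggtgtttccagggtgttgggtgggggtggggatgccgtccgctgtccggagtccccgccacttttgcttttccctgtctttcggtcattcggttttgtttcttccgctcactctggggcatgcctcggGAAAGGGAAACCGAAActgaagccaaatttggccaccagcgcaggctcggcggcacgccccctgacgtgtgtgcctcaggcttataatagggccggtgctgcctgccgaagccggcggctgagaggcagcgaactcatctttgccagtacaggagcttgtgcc
IFIT5: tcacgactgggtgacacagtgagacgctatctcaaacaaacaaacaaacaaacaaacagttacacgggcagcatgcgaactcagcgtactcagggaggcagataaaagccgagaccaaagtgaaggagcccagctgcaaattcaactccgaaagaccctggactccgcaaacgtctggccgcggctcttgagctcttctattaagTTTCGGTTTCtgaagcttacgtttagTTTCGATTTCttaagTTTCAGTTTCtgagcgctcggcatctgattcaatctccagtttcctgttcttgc
IFIT1: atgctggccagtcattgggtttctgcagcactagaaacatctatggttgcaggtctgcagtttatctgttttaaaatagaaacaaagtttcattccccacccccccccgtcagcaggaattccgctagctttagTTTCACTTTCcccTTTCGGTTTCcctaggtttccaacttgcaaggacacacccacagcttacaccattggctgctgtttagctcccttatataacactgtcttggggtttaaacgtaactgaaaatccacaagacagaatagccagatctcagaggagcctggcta

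IFIT1 rose by 1.58 in H929 and 1.12 in OPM2, against 0.06 in MM1S and 0.74 in RPMI-8226, with a difference of 0.95 that was not called (edgeR adjusted p = 0.0993). A promoter sequence was at hand for 12560 of the 16468 tested genes, and 380 of these (3.03%) held such a pair of GAAA half-sites. Among separated higher genes the share was 18 of 227 (7.93%), and among separated lower genes 2 of 128 (1.56%). The 18 include 7 members of the interferon list, in which 21 of 32 promoters held the motif (65.6%). Within the interferon list 7 of the 11 separated members held it (63.6%). Of the 29 members that were not separated 21 had a promoter sequence, and 14 of these held it (66.7%). These are small counts. The composite element of ETS and interferon regulatory factors, searched as GGAA and GAAA separated by any 2 bases, was in 327 of all promoters (2.60%), in 12 of the 227 separated higher (5.29%) and in 2 of 128 separated lower ones (1.56%). These are matches of letters in a short window and not binding sites, and no test was made on them.

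Of 8 tested interferon regulatory factors other than IRF4, 2 were higher and none lower, against 11.6% higher and 14.4% lower over all genes. IRF2, a constitutive family member, was separated, with 0.69 in H929 and 0.88 in OPM2, against 0.25 in MM1S and 0.01 in RPMI-8226 and a difference of 0.66 ± 0.09 (edgeR adjusted p = 2.99e-06). IRF8, a factor of B and myeloid cells, differed by 2.46 ± 0.30 (edgeR adjusted p = 3.1e-07), and averaged 0.775 ± 0.189 against 0.0444 ± 0.0468 in H929, 0.758 ± 0.157 against 0.357 ± 0.123 in OPM2, 13.2 ± 0.422 against 12.02 ± 0.588 in MM1S and 44.5 ± 1.12 against 64.6 ± 4.64 in RPMI-8226 (TMM CPM, mean ± SD, IRF4 guide against EV). The FGFR3 lines stayed below 1 TMM CPM on average with either guide. The IRF8 difference was 1.10 without H929. Of 17 tested genes of MHC class I presentation 7 were higher and 1 lower, with a median of 0.26. TAPBP, the chaperone tapasin, was separated at 0.88 ± 0.08. HLA-B, a class I heavy chain, was at 0.51 ± 0.09, but at 0.11 and not called without H929. Without H929 4 of the 17 were higher.

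Of 22 tested death receptor and caspase genes 4 were higher and 4 lower (18.2% each), near the 11.6% and 14.4% of all genes. The 2 separated ones were inflammatory caspases. CASP1 is the protease that activates interleukin-1 beta, and CASP4 senses bacterial lipopolysaccharide. CASP1 had 33.4, 33.7 and 22.1 TMM CPM with the IRF4 guide and 1.28, 0.875 and 1.49 with EV in H929, and 43.9, 43.3 and 33.8 with the IRF4 guide and 5.98, 4.27 and 6.21 with EV in OPM2. CASP1 in MM1S had 50.7, 53.1 and 46.00 TMM CPM with the IRF4 guide and 41.1 and 46.3 with EV, and in RPMI-8226 20.2, 23.6 and 25.7 with the IRF4 guide and 25.5, 25.1 and 28.96 with EV. The guide groups did not overlap in H929 and OPM2, and overlapped in MM1S and RPMI-8226. CASP1 (Entrez 834, chromosome 11, 105025443 to 105036686) responded by 4.50 ± 0.20 in H929 and 2.82 ± 0.16 in OPM2, against 0.20 ± 0.15 in MM1S and -0.18 ± 0.14 in RPMI-8226, a difference of 3.66 ± 0.17 (edgeR adjusted p = 3.95e-16). Its neighbour in function CASP4 rose in all 4 lines, by 2.41 in H929 and 1.78 in OPM2, against 0.58 in MM1S and 0.56 in RPMI-8226, with a difference of 1.53 ± 0.14 (edgeR adjusted p = 1.22e-09). The executioner CASP6 was lower, with a difference of -0.63. CASP8, which starts death receptor signalling, differed by 0.40, and by -0.08 without H929.

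Cytokine signalling genes were mixed, with 7 of 27 higher (25.9%) and 4 lower (14.8%), against 11.6% and 14.4% of all genes. STAT4, which transmits interleukin-12 and interferon signals, responded by 1.10 in H929 and 3.78 in OPM2, against -0.54 in MM1S and -0.90 in RPMI-8226, and differed by 3.16 ± 0.25 (edgeR adjusted p = 9.21e-11), or 1.83 without OPM2. IL6R, the receptor of the myeloma growth factor interleukin-6, fell in 3 lines and rose in MM1S. It responded by -0.75 in H929 and -0.96 in OPM2, against 0.42 in MM1S and -0.71 in RPMI-8226, and its difference of -0.71 was -0.17 and not called without MM1S. JAK1 and STAT3 were higher by 0.59 and 0.48, and neither was called without H929, where 3 of the list were higher.

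Regulators of the leukocyte actin skeleton had the next most separated members. Of 27 tested members 19 were higher and 1 lower, 6 were separated, and the median difference was 0.52. Among all genes tested 11.6% were higher and 14.4% lower. The median response of the list was 0.83 in H929 and 0.77 in OPM2, against 0.29 in MM1S and 0.40 in RPMI-8226. Without H929 13 members were higher, without MM1S 16. LCP1, the actin-bundling protein L-plastin, rose in the FGFR3 lines and did not pass the test in either MAF line. LCP1 had 148, 150.2 and 140.4 TMM CPM with the IRF4 guide and 39.2, 35.8 and 41.3 with EV in H929, and 117, 124 and 89.1 with the IRF4 guide and 9.69, 6.52 and 5.64 with EV in OPM2. LCP1 in MM1S had 1702, 1630.5 and 1743 TMM CPM with the IRF4 guide and 1657 and 1776 with EV, and in RPMI-8226 1213, 1099 and 1193 with the IRF4 guide and 1369, 1337 and 1265 with EV. Every MAF line library lay above every FGFR3 line library. LCP1 differed by 2.99 ± 0.12 (edgeR adjusted p = 3.95e-16). GSN, gelsolin, which severs actin filaments, rose in all 4 lines. GSN had 203, 199.7 and 167 TMM CPM with the IRF4 guide and 3.79, 2.25 and 4.33 with EV in H929, and 40.9, 39.8 and 38.4 with the IRF4 guide and 0.928, 0.8301 and 0.661 with EV in OPM2. GSN in MM1S had 7.41, 8.498 and 11.2 TMM CPM with the IRF4 guide and 1.73 and 3.24 with EV, and in RPMI-8226 36.96, 18.8 and 44.9 with the IRF4 guide and 5.06, 3.75 and 4.61 with EV. With the guide it was higher in H929 than in any MAF line library, and its difference was 3.28 ± 0.42 (edgeR adjusted p = 1.07e-05). The myosin MYO1F rose by 5.22 in H929 and 5.01 in OPM2, against 1.42 in MM1S and 1.83 in RPMI-8226, a difference of 3.49. MYO7A, also a myosin, averaged 1.205 ± 0.431 against 0.0133 ± 0.02305 in H929, 2.86 ± 0.0501 against 0 in OPM2, 52.3 ± 4.81 against 13.3 ± 0.774 in MM1S and 26.7 ± 5.09 against 8.45 ± 0.568 in RPMI-8226 (TMM CPM, mean ± SD, IRF4 guide against EV), and differed by 4.12 with its group at 0 counts set to the floor. The MAF lines had more MYO7A with EV than the FGFR3 lines with the guide. ARPC1B, a subunit of the complex that branches actin, and LSP1, a leukocyte actin-binding protein, were separated at 0.80 and 0.84. LSP1 was at 0.54 without RPMI-8226.

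Surface adhesion and lysosome genes were also more often higher than lower, while over all genes 11.6% were higher and 14.4% lower. Of 20 tested adhesion and homing genes 9 were higher and 1 lower, with a median of 0.42 and with ITGA4 and CD44 separated. CD44, a receptor for hyaluronan, rose in both FGFR3 lines and fell in RPMI-8226. CD44 had 1995, 1952 and 2177 TMM CPM with the IRF4 guide and 827, 721 and 884 with EV in H929, and 73.2, 83.4 and 68.6 with the IRF4 guide and 47.02, 42.2 and 34.4 with EV in OPM2. CD44 in MM1S had 926, 883 and 930.4 TMM CPM with the IRF4 guide and 1062 and 1083 with EV, and in RPMI-8226 2.87, 3.51 and 3.34 with the IRF4 guide and 7.78, 8.41 and 7.68 with EV. The difference in CD44 was 1.86 ± 0.11 (edgeR adjusted p = 5.31e-14). ITGAL, an integrin chain of leukocytes, differed by 1.20, and by 0.45 without OPM2. ITGAV, a chain of vitronectin receptors, differed by 0.78, or 0.42 without MM1S. Of 29 lysosome and autophagy genes 13 were higher and none lower, with a median of 0.24 and 1 separated, the protease CTSS at 0.90 (0.43 without OPM2). The protective protein CTSA, at 1.17, and the protease CTSB, at 1.16, rested more on H929: without it they were 0.38 and 0.61, and 8 of the 29 genes were higher.

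**Figure D4:**
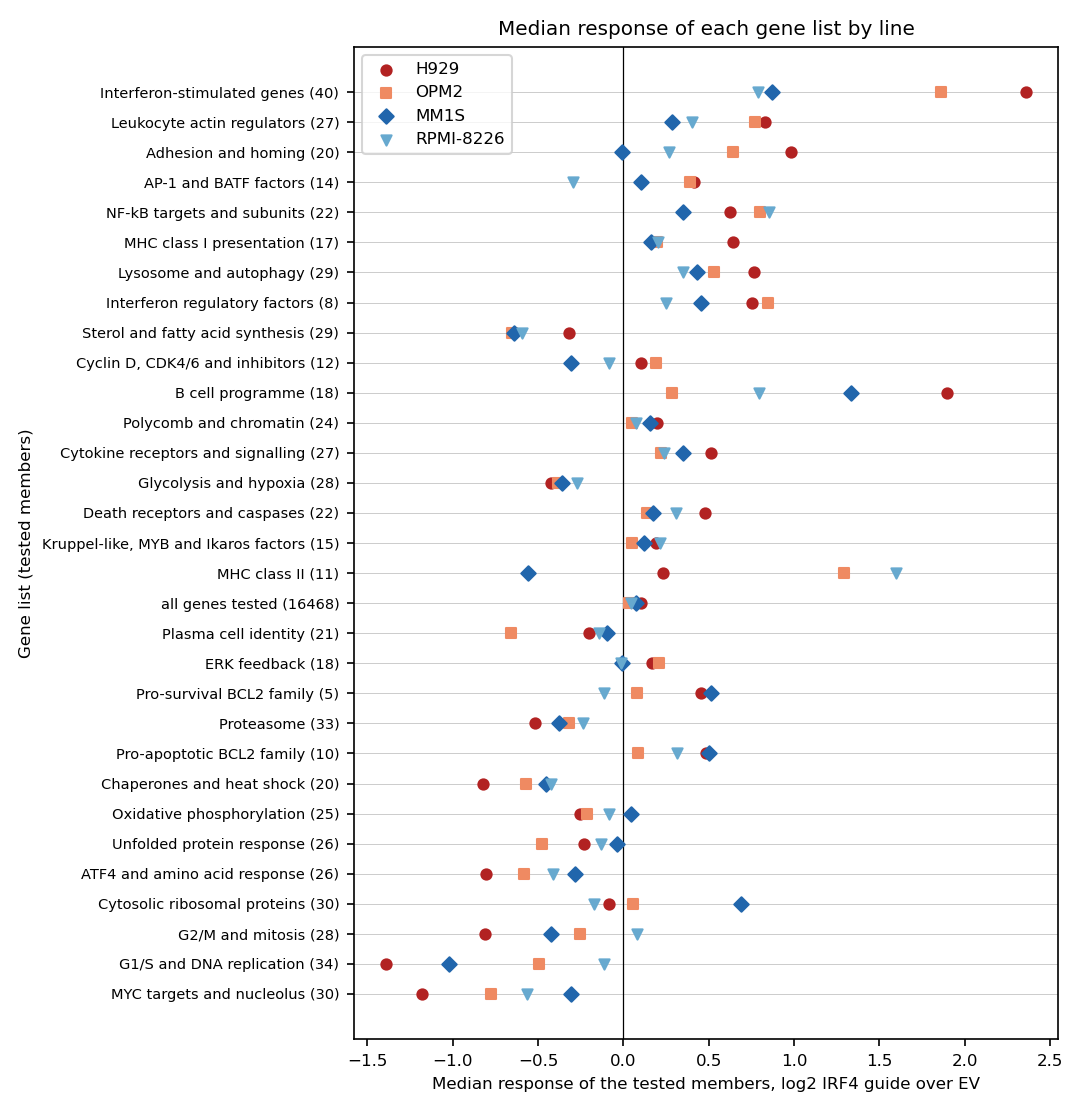
Median response of the tested members of 30 gene lists and of all genes tested (log2 IRF4 guide over EV) in each line, ordered by the median difference of responses, with the number of tested members in parentheses. The FGFR3 lines (red circles, orange squares) lie right of the MAF lines in the interferon list and left of them in the MYC and nucleolus list, while H929 and MM1S lie left of the others in the G1/S list.

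The largest separated differences include genes that were under 1 TMM CPM with EV in both FGFR3 lines. They are named by size among separated genes that reached 1 TMM CPM in every line. LAPTM5, a lysosomal membrane protein of blood cells, had the highest levels in the MAF lines. LAPTM5 had 12.4, 12.9 and 14.3 TMM CPM with the IRF4 guide and 0.1597, 0.50 and 0.699 with EV in H929, and 13.3, 14.3 and 10.05 with the IRF4 guide and 0.409, 0.949 and 0.132 with EV in OPM2. LAPTM5 in MM1S had 2867, 2994 and 3029 TMM CPM with the IRF4 guide and 1592 and 1544 with EV, and in RPMI-8226 994, 920.4 and 1083 with the IRF4 guide and 683, 655 and 654 with EV. The FGFR3 lines gained it in every library and yet stayed far below the MAF lines with either guide. LAPTM5 (Entrez 7805, chromosome 1, 30732469 to 30757774) rose by 4.94 ± 0.26 in H929 and 5.02 ± 0.26 in OPM2, against 0.92 ± 0.13 in MM1S and 0.59 ± 0.11 in RPMI-8226, a difference of 4.22 ± 0.22 (edgeR adjusted p = 2.27e-13). CRYBB1, a crystallin, differed by 3.25 ± 0.34. GBP2, an interferon-induced GTPase that was not in the interferon list, rose in both FGFR3 lines and fell in RPMI-8226 by 1.72, with a difference of 3.44 ± 0.25 (edgeR adjusted p = 1.68e-11). FN1, the matrix protein fibronectin, had 490.3 TMM CPM with the IRF4 guide and 14.9 with EV in OPM2 and 5237 TMM CPM with the IRF4 guide and 3199.8 with EV in RPMI-8226. Its difference was 3.47 ± 0.20, or 2.16 without OPM2.

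Among the largest separated lower differences, several were gains in the MAF lines. GDPD5, a glycerophosphodiester phosphodiesterase, averaged 10.5 ± 2.69 against 6.19 ± 1.903 in H929, 3.803 ± 0.593 against 3.48 ± 0.664 in OPM2, 2.55 ± 1.09 against 0 in MM1S and 22.9 ± 2.52 against 6.77 ± 0.561 in RPMI-8226 (TMM CPM, mean ± SD, IRF4 guide against EV). With 0 counts in both MM1S EV libraries, its level there with the IRF4 guide was at least 14.8-fold higher, the difference with that floor was -2.31, and without MM1S it was -1.29. SOX4, a transcription factor of progenitor cells, responded by 0.67 in H929 and -0.41 in OPM2, against 1.32 in MM1S and 2.82 in RPMI-8226, a difference of -1.94 ± 0.21 (-1.19 without RPMI-8226). TTYH3, a membrane protein of the tweety family, rose in all 4 lines and less in the FGFR3 lines (-1.44). Others fell in both FGFR3 lines. KLF15, a Kruppel-like factor, responded by -3.31 in H929 and -1.18 in OPM2, against 0.36 in MM1S and -0.44 in RPMI-8226, and its difference of -2.21 ± 0.24 was -1.15 without H929. YES1, a kinase of the SRC family, and AQP3, a water and glycerol channel, differed by -1.40 and -1.35, and YES1 by -0.84 without RPMI-8226. LRATD2 (-1.53, and -0.99 without H929), SLCO5A1 (-1.61), MTSS1 (-1.51), PITX1 (-1.46) and ADM5 (-1.34) complete the 12, with GNG7. MTSS1 was not called in either FGFR3 line and rose in both MAF lines.

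**Figure D5:**
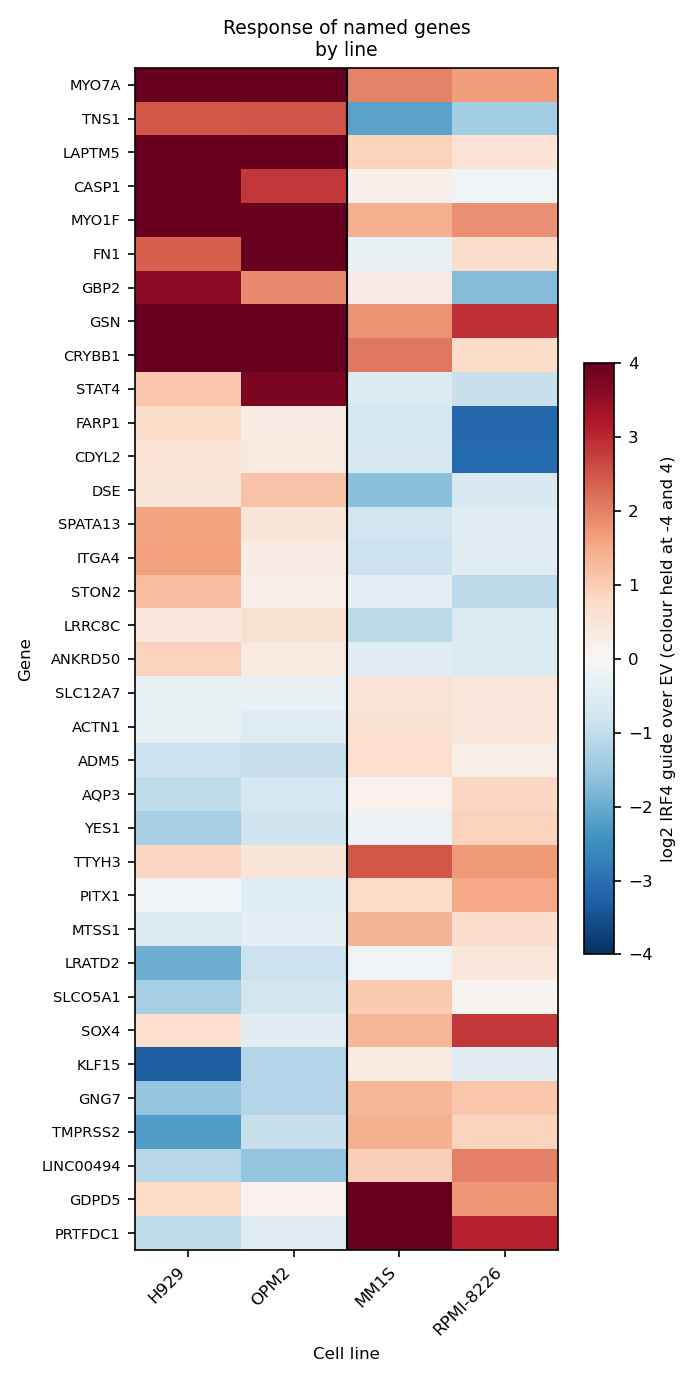
Response in each line (log2 IRF4 guide over EV, colour held at -4 and 4) of 35 genes named for a large separated difference or for opposite directions in the pairs, ordered by the difference of responses. The line between OPM2 and MM1S divides the FGFR3 lines from the MAF lines.

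A small set of genes moved in opposite directions: 11 were called higher in both FGFR3 lines and lower in both MAF lines, and 7 the reverse. Among the 11 were genes of adhesion and of the cell cortex. ITGA4 is the alpha chain of the integrin by which myeloma cells hold to stroma. ITGA4 had 2445, 2458 and 2677 TMM CPM with the IRF4 guide and 840.0, 778 and 836 with EV in H929, and 323, 358 and 400.4 with the IRF4 guide and 283, 277 and 310.3 with EV in OPM2. ITGA4 in MM1S had 244, 239 and 268 TMM CPM with the IRF4 guide and 454 and 463 with EV, and in RPMI-8226 31.6, 20.8 and 31.1 with the IRF4 guide and 34.4, 38.5 and 37.8 with EV. All IRF4 guide libraries lay above EV in both FGFR3 lines and below EV in both MAF lines. ITGA4 (Entrez 3676, chromosome 2, 181457205 to 181538940) responded by 1.63 ± 0.10 in H929 and 0.31 ± 0.10 in OPM2, against -0.87 ± 0.11 in MM1S and -0.41 ± 0.11 in RPMI-8226, a difference of 1.61 ± 0.10 (edgeR adjusted p = 2.66e-12), or 0.95 without H929. TNS1, tensin, which links integrins to actin, responded by 2.50 in H929 and 2.52 in OPM2, against -2.15 in MM1S and -1.37 in RPMI-8226. Its levels were low, at 1.09 to 2.90 TMM CPM with the IRF4 guide and 0.160 to 0.513 with EV in H929. In MM1S they were 0.176 to 0.554 with the IRF4 guide and 0.893 to 1.32 with EV. FARP1, a guanine nucleotide exchange factor, responded by 0.74 in H929 and 0.31 in OPM2, against -0.71 in MM1S and -3.14 in RPMI-8226, and CDYL2, a chromodomain protein, by 0.54 in H929 and 0.37 in OPM2, against -0.61 in MM1S and -3.12 in RPMI-8226. Without RPMI-8226 the differences of FARP1 and CDYL2 were 1.24 and 1.06, against 2.45 and 2.32 with it. The rest were DSE, an enzyme of dermatan sulfate synthesis (1.96), SPATA13, a further exchange factor of this kind (1.65), STON2, an endocytic adaptor (1.46), LRRC8C, a subunit of volume-regulated anion channels (1.33), ANKRD50, of endosomal recycling (1.14), GLI3, a transcription factor of Hedgehog signalling (1.31), and DNMBP, an exchange factor for CDC42 (1.69).

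Of the 7 that fell in the FGFR3 lines and rose in the MAF lines, GNG7, a gamma subunit of heterotrimeric G proteins, had the smallest p. GNG7 had 22.6, 28.8 and 31.9 TMM CPM with the IRF4 guide and 77.6, 76.3 and 95.5 with EV in H929, and 27.2, 25.8 and 30.1 with the IRF4 guide and 65.2, 62.5 and 61.7 with EV in OPM2. GNG7 in MM1S had 9.24, 9.41 and 8.87 TMM CPM with the IRF4 guide and 3.77 and 3.57 with EV, and in RPMI-8226 4.16, 3.79 and 3.202 with the IRF4 guide and 1.73, 1.88 and 1.32 with EV. The groups did not overlap in any line, and the FGFR3 lines remained above the MAF lines with either guide. GNG7 (Entrez 2788, chromosome 19, 2511219 to 2702694) responded by -1.59 ± 0.11 in H929 and -1.19 ± 0.11 in OPM2, against 1.32 ± 0.20 in MM1S and 1.11 ± 0.19 in RPMI-8226, a difference of -2.61 ± 0.16 (edgeR adjusted p = 1.89e-13). ACTN1, an actin crosslinker, differed by -0.93 ± 0.12, and SLC12A7, a potassium chloride cotransporter, by -0.77 ± 0.11. TMPRSS2, LINC00494 and PRTFDC1 were also among the 7, all of them under 1 TMM CPM in at least 1 line. PRTFDC1 had 0 counts with EV in MM1S, and its difference with the floor was -2.65.

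Genes of the nucleolus and of MYC target programmes fell by more in the FGFR3 lines by their medians. Only 2 of the 30 were separated and lower, against 0.923% of all genes. Of the 30 tested members 30 fell in H929 and 29 in OPM2, against 16 in MM1S and 29 in RPMI-8226. The shares of all genes called lower were 26.1% in H929, 20.2% in OPM2, 15.2% in MM1S and 14.7% in RPMI-8226. MYC is the oncogene that drives ribosome production and growth in myeloma. MYC had 162, 187 and 187 TMM CPM with the IRF4 guide and 397, 439 and 427 with EV in H929, and 189, 245 and 273 with the IRF4 guide and 411, 531 and 462 with EV in OPM2. MYC in MM1S had 789.7, 788 and 698 TMM CPM with the IRF4 guide and 586 and 551 with EV, and in RPMI-8226 613, 568 and 622 with the IRF4 guide and 1194, 1145 and 1113 with EV. MYC was lower with the IRF4 guide in every library of H929, OPM2 and RPMI-8226 and higher in every library of MM1S. Its difference of -0.85 ± 0.10 (edgeR adjusted p = 2.4e-07) was -0.20 and not called without MM1S. In the difference 26 of the 30 were lower and none higher, with a median difference of -0.51, against 14.4% and -0.03 over all genes. The median response was -1.18 in H929 and -0.78 in OPM2, against -0.31 in MM1S and -0.56 in RPMI-8226. Without H929 7 were lower, without MM1S 16, and without OPM2 or RPMI-8226 26. POLR1B and POLR1C, subunits of RNA polymerase I, were separated at -0.59 ± 0.08 and -0.61 ± 0.09. NOP16, a nucleolar assembly factor, differed by -0.89 ± 0.14, and NOLC1, a nucleolar chaperone, by -0.56 ± 0.09 (-0.26 without H929).

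Several other lists were lower in the FGFR3 lines on the pair means but followed single lines, where 14.4% of all genes were lower on the pair means. Of 34 G1/S and DNA replication genes 23 were lower, with a median of -0.38, and none were lower without H929 or without RPMI-8226. The median response was -1.39 in H929 and -0.50 in OPM2, against -1.02 in MM1S and -0.11 in RPMI-8226, so the larger falls were in H929 and MM1S. MCM10, a replication initiation factor, responded by -2.12 in H929 and -0.72 in OPM2, against -1.32 in MM1S and -0.22 in RPMI-8226, and its difference of -0.65 was 0.05 without H929 and -0.10 without RPMI-8226. Of 28 G2/M and mitosis genes 20 were lower, none without H929 and 1 without RPMI-8226. Of 30 cytosolic ribosomal protein genes 12 were lower, none without MM1S. In MM1S 29 of the 30 rose, against 19.4% of all genes called higher there. Without MM1S 3 were higher, without H929 2 were lower, and without RPMI-8226 29 were lower. RPS2, a small-subunit protein, shows it. RPS2 had 453, 445 and 449.5 TMM CPM with the IRF4 guide and 432, 444 and 491 with EV in H929, and 327, 334 and 284 with the IRF4 guide and 308, 331 and 283 with EV in OPM2. RPS2 in MM1S had 301, 304 and 268 TMM CPM with the IRF4 guide and 157 and 153 with EV, and in RPMI-8226 419, 429 and 370.0 with the IRF4 guide and 484, 487 and 463 with EV. RPS2 rose in MM1S, fell in RPMI-8226 and was not called in either FGFR3 line. Its difference of -0.33 ± 0.08 (edgeR adjusted p = 0.00222) was 0.23 without that line. Of 25 oxidative phosphorylation genes 12 were lower and none higher, with a median of -0.22, 3 were lower without H929, and 6 or 7 with other scalings. MYB, a factor of proliferating blood cells, fell in all 4 lines, with responses of -3.90 in H929 and -1.72 in OPM2, against -2.17 in MM1S and -0.68 in RPMI-8226, and its difference of -1.38 was lost without H929 or without RPMI-8226.

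Among plasma cell and secretory genes the lower calls outnumbered the higher ones, as they did over all genes (14.4% lower and 11.6% higher). The median response of the unfolded protein response list was -0.23 in H929 and -0.48 in OPM2, against -0.04 in MM1S and -0.13 in RPMI-8226. Of 21 tested plasma cell identity genes 9 were lower and 4 higher, none separated, with a median of -0.03, the same as over all genes. XBP1, the factor that builds the secretory apparatus, is an example. XBP1 had 2381, 2476 and 2731 TMM CPM with the IRF4 guide and 3354, 3345 and 3387 with EV in H929, and 979.9, 1105 and 1285 with the IRF4 guide and 1955, 2177 and 2040.4 with EV in OPM2. XBP1 in MM1S had 662, 654 and 588 TMM CPM with the IRF4 guide and 588 and 558 with EV, and in RPMI-8226 410.1, 346 and 399 with the IRF4 guide and 449.9, 405 and 405 with EV. Both FGFR3 lines started well above both MAF lines. XBP1 fell without overlap in both FGFR3 lines and was not called in either MAF line, a difference of -0.65 ± 0.09 (edgeR adjusted p = 1.05e-06), or -0.41 without OPM2. POU2AF1, a coactivator of immunoglobulin genes, differed by -0.67, and by -0.44 without RPMI-8226. CD28, a costimulatory receptor, was higher by 0.66, and by 0.29 without RPMI-8226. PRDM1, the repressor that fixes plasma cell identity, fell in all 4 lines (-0.26 in H929 and -0.88 in OPM2, against -0.53 in MM1S and -0.62 in RPMI-8226) with a difference of 0.01 ± 0.08 (edgeR adjusted p = 1), which was -0.31 without H929 and 0.34 without OPM2, both called. Of 26 unfolded protein response genes 11 were lower and 1 higher, with a median of -0.27, among them the lectin chaperone CANX (-0.45) and the disulfide isomerase PDIA4 (-0.44, and -0.12, not called, without OPM2). Without OPM2 3 of the 26 were lower. Of 26 genes of the ATF4 and amino acid response 9 were lower and 1 higher, with a median of -0.30. The arginine and lysine transporter SLC7A1 was separated at -0.84 ± 0.08 (-0.50 without H929), and the tryptophanyl-tRNA synthetase WARS differed by -0.67 (-0.42 without H929). Without H929 4 of this list were lower.

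Smaller sets of transcription factors held called genes as well, beside 11.6% higher and 14.4% lower over all genes. FOSL2, an AP-1 factor, was separated, with 1.44 in H929 and 2.32 in OPM2, against -0.81 in MM1S and -0.40 in RPMI-8226 and a difference of 2.48 ± 0.17 (edgeR adjusted p = 3.69e-11). MAFF, a small MAF protein, was separated at 1.16. They were among 4 higher and 1 lower of 14 AP-1 and BATF factors, with 2 higher without H929 and 7 with RLE scaling. ID3, an inhibitor of E proteins, was the separated gene of 18 tested B cell genes, of which 4 were higher and 1 lower, at 1.55 ± 0.13. BCL6, the germinal centre repressor, rose in all 4 lines, and its difference of 1.47 was lost without H929 or without RPMI-8226. REL, an NF-kB subunit, rose in both MAF lines, with responses of 0.14 in H929 and 0.01 in OPM2, against 0.92 in MM1S and 0.93 in RPMI-8226, and was separated at -0.85 ± 0.13, while BCL3, a nuclear NF-kB cofactor, was higher by 1.26 (0.46 without H929). Of 22 NF-kB targets and subunits 7 were higher and 3 lower. KLF3, a Kruppel-like repressor, was called higher in both MAF lines and not called in either FGFR3 line (-0.01 in H929 and 0.05 in OPM2, against 0.71 in MM1S and 1.09 in RPMI-8226), with a difference of -0.88, and IKZF1, encoding Ikaros, was higher by 0.67 (0.37 without H929). TET3, a DNA demethylation enzyme, was separated at -0.88 (-0.47 without H929).

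The remaining lists had few calls or calls that split, beside 11.6% higher and 14.4% lower over all genes. In glycolysis and hypoxia 1 of 28 was higher and 4 lower, with the glucose transporter SLC2A3 separated at 3.68 ± 0.45 and the pyruvate dehydrogenase kinase PDK1 at -0.68 ± 0.10. In sterol and fatty acid synthesis 6 of 29 were higher and 2 lower. Of 33 proteasome genes 4 were lower, of 20 chaperones 6, and of 11 MHC class II genes 1, CIITA, whose call was lost with the same sign in 14 of 35 alternatives and whose sign changed without H929 (0.20) or RPMI-8226 (0.35). The 6 sterol genes were 2 without H929 and 9 with RLE scaling. Cyclin D, CDK4/6 and their inhibitors had 3 of 12 higher and 1 lower, ERK feedback genes 4 of 18 and 1, Kruppel-like, MYB and Ikaros factors 4 of 15 and 4, and Polycomb and chromatin genes 6 of 24 and 4, with 2 of the 24 higher without H929. Among the genes tied to the names of the pairs, NSD2 differed by 0.48, lost without H929 (0.08) or MM1S (0.16), FGFR3 by 0.60 ± 0.37 (edgeR adjusted p = 0.265), and MAF by 0.49, which was -0.37 without RPMI-8226. Of 12 MAF-linked genes 6 were higher and 1 lower.

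Some genes responded in one pair and had no count at all in the other. Of 1541 tested genes with 0 counts in every library of a line, none was called in the difference and none had an unadjusted p under 0.05 by edgeR, whose fit gives no usable error for them. Among the 5 named here, the difference was called for SLC22A9 and PGLYRP4 by DESeq2 and by limma on log2 RPKM and with voom, and for SERPINA6, AGT and MS4A4A by both limma fits. DESeq2 did not call AGT and MS4A4A and gave no adjusted p for SERPINA6. There were 6 genes called higher in both FGFR3 lines with 0 counts in every MAF line library, and 2 of the reverse. SLC22A9, an organic anion transporter, was one of the 6. It had 7.45, 7.24 and 6.77 TMM CPM with the IRF4 guide and 0.319, 0 and 0.186 with EV in H929, and 3.304, 2.38 and 3.74 with the IRF4 guide and 0.334, 0.237 and 0.132 with EV in OPM2. SERPINA6, which encodes the corticosteroid-binding globulin, averaged 0.541 TMM CPM in H929 and 0.791 in OPM2 with the IRF4 guide, and AGT, angiotensinogen, 4.75 in OPM2 with the guide and 0.586 with EV. In H929 AGT had 0.1602, 0 and 0.0483 TMM CPM with the IRF4 guide, 5 counts in all, and 0 with EV. The 2 genes of the MAF lines were MS4A4A, a surface protein of macrophages, and PGLYRP4, a peptidoglycan recognition protein. PGLYRP4 averaged 2.43 TMM CPM with the IRF4 guide and 0.599 with EV in MM1S and 2.06 TMM CPM with the IRF4 guide and 0.0633 with EV in RPMI-8226.

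Markers of other blood cells, which a myeloma culture should lack, moved with the guide. The summed level of 14 T and NK cell markers was 260 to 320 TMM CPM with the IRF4 guide and 15.1 to 18.6 with EV in H929, and 26.4 to 37.2 with the IRF4 guide and 1.19 to 1.59 with EV in OPM2. In MM1S it was 11.7 to 15.7 with the IRF4 guide and 5.69 to 6.22 with EV, and in RPMI-8226 18.1 to 20.1 with the IRF4 guide and 8.01 to 12.1 with EV. Of the 13 tested, 1 was called in the difference by edgeR, against 6 by DESeq2. Over all 16468 genes tested edgeR called 11.6% higher and 14.4% lower, and DESeq2 called 2478 genes higher and 2047 lower. The marker called by edgeR was PRF1, perforin, at 4.76, and its call was lost without RPMI-8226. In H929 GZMB had 5501 counts over the libraries with the IRF4 guide and 5 over those with EV, and CD3E had 5572 with the guide and 783 with EV, while CD4, CD5, CD8A and KLRD1 had 0 to 2 counts over each guide's libraries. Of the 6 tested myeloid markers 2 were higher and 1 lower, the calls being CSF1R, S100A9 and CD33. The CD33 call was lost in 21 of 35 alternatives, that of CSF1R without RPMI-8226 or MM1S EV replicate 2, and that of S100A9 without H929 or MM1S EV replicate 2. The summed level of the 12 myeloid markers was 35.0 to 38.9 with the guide and 2.08 to 3.13 with EV in H929, and 3.57 to 6.37 with the IRF4 guide and 2.82 to 4.38 with EV in OPM2. It was 17.6 to 24.2 with the IRF4 guide and 6.32 to 9.04 with EV in MM1S, and 50.4 to 56.4 with the IRF4 guide and 32.2 to 37.6 with EV in RPMI-8226. MPO and ELANE, which define granulocyte precursors, had at most 1 count over any group. None of the 6 tested stromal and epithelial markers and 1 of the 4 erythroid and megakaryocyte markers (KLF1, lower) were called. The summed level of the 12 stromal and epithelial markers was nevertheless high in RPMI-8226, at 190 to 204 TMM CPM with the IRF4 guide and 234 to 244 with EV. In the other lines it was at most 5.45. In RPMI-8226 EPCAM had 5670 counts with the guide and 7028 with EV, and KRT18 had 6965 and 6506. KLF1 had at most 33 counts over any group, and its call was lost without H929, OPM2 or RPMI-8226. The part of these markers in the leukocyte gene results was not tested. In bulk RNA fewer cells of a kind and less RNA per cell cannot be told apart.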

How the data were processed

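RNA of 4 established myeloma lines was sequenced in 23 libraries after doxycycline had induced a guide RNA for 48 hours. The authors deposited a table of raw counts and, for each library, log2 RPKM values, made with Subread, featureCounts and limma on GRCh38, per the submitters' processing notes, with roles and versions not given in the sources used here. Counting was not stated to use strand, so a gene and an antisense partner cannot be told apart.

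The counts were tested with edgeR 4.0.16 (R 4.3.3) by the robust quasi-likelihood F test, with TMM scaling, its default expression filter by group and a mean for each of 8 groups of line and guide. Contrasts were the response in each line, the mean response of each pair, and their difference. P-values were adjusted by the Benjamini-Hochberg method over all 16468 genes tested, and called below 0.05. "Higher" and "lower" of a difference refer to the FGFR3 lines relative to the MAF lines. Groups at 0 counts were also set to a floor of 3 counts in all, and fold changes against them are bounds. On simulated data with the same layout the test called 93% of genes changed by 1, 63% of those changed by 0.5 (log2) and 0.0516% of unchanged genes. In that simulation unchanged genes had no response in any line. Changed genes moved equally in both FGFR3 lines and were at 1 TMM CPM or more in every group. The data differ in these points, so the shares do not carry over to them. Of the 22 pairs of replicate libraries none agreed within sampling noise. Floors and the bounds made with them cover counting error only. The ± SE values come from the edgeR fit and include the spread among libraries.

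The genes named are IRF4, BMF, BCL2L11, MYC, PRDM1, FGFR3, NSD2 and MAF, the 12 largest separated differences each way among genes at 1 TMM CPM or more in every line, up to 8 genes each way with opposite calls, up to 4 called members of each list by smallest adjusted p, and up to 5 genes each way without counts in the other pair. Separated members of the lists, the remaining genes with opposite calls, CASP6, CASP8, MX2, SAMD9, IFIT1 and other list members outside this rule were added after their values were seen. A few genes and 1 list are not reported here. The genes and lists were chosen with earlier results of these data known. Alternatives were DESeq2 1.42.0, RLE scaling, other filters, replicate blocks, limma 3.58.1 on the deposited log2 RPKM and with voom weights, and leaving out each library and each line.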

Additional observations from a re-analysis of the deposited data

Results flagged for a closer look

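Responses in opposite directions set 17 of the genes reported here apart, since both lines of one pair were called higher and both lines of the other lower, and the difference of responses itself was tested in the edgeR fit. Their differences (log2, FGFR3 lines minus MAF lines) were TNS1 4.27, FARP1 2.45, CDYL2 2.32, DSE 1.96, DNMBP 1.69, SPATA13 1.65, ITGA4 1.61, STON2 1.46, LRRC8C 1.33, GLI3 1.31 and ANKRD50 1.14 for the 11 genes that rose in H929 and OPM2 and fell in MM1S and RPMI-8226. The edgeR adjusted p of these 11 was at most 1.22e-07 (DNMBP). The differences of the 6 genes that fell in H929 and OPM2 and rose in MM1S and RPMI-8226 were SLC12A7 -0.77, ACTN1 -0.93, GNG7 -2.61, TMPRSS2 -2.72, LINC00494 -2.82 and PRTFDC1 -4.81, with an edgeR adjusted p of at most 0.000229 (TMPRSS2). PRTFDC1 had 0 counts in the EV libraries of MM1S, and its difference with the floor was -2.65. Groups of line and guide held 3 libraries or fewer, so single libraries were not tested for standing apart.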

How the results depend on the processing

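The count of higher differences was 1909 and that of lower ones 2373, and without H929 1239 and 1175. With single libraries left out they ran from 1642 to 2147 and from 1925 to 2476. At 2-fold or more the 717 higher calls became 396 among genes at 1 CPM or more in every line and 1203 with voom, and with a library left out 639 to 775. The 180 lower ones of that size became 88 among genes at 1 CPM or more, 457 without OPM2, 331 without MM1S, 580 on log2 RPKM and 296 with voom, and 150 to 192 with a library left out. Separated genes ran from 210 to 321 higher and 94 to 178 lower with a library left out, 94 without OPM2 EV replicate 2 and 99 without MM1S EV replicate 2 or 3. Calls in single lines with a library left out ran in H929 from 4723 to 5463 higher and 3939 to 4347 lower, in OPM2 from 3134 to 4056 and 2796 to 3436, in MM1S from 2011 to 3308 and 1799 to 2682, and in RPMI-8226 from 2312 to 3240 and 1704 to 2584, with 2011 without MM1S EV replicate 2.

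The deviations of same-numbered libraries of a line had r from 0.04 to 0.34 over 11 pairs, 9 of them over 0.1 and the other two in MM1S, against -0.20 to 0.04 over 22 differently numbered pairs. The 2 ranges are not independent, since deviations from a group mean add up to 0, so positive same-numbered values go with negative ones elsewhere. The same-numbered values are a hint of pairing from the data, which the labels do not give, and the analysis was kept unpaired. With a replicate block shared by the lines 293 genes were separated and lower, and with a replicate block within each line 286, against 152. The balance of directions under each scaling stands in the report.

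Of the named genes, 131 values of the difference lost their call under an alternative, 19 gained one, 5999 did neither and 18 of genes called in the difference changed sign. Without H929 the sign of a called difference changed for CASP8 (-0.0784), CDC45 (0.0286), CIITA (0.20), DEPTOR (-0.0432), FDFT1 (-0.0395), MCM10 (0.0486) and TP53INP1 (-0.0891). Without MM1S it changed for CCND3 (-0.0507), HRK (0.34), NUAK1 (0.10), RPL10A (0.0602), RPL14 (0.0187), RPL5 (0.0213) and RPS2 (0.23), without OPM2 for CCND3 (-0.16), and without RPMI-8226 for CIITA (0.35), MAF (-0.37) and NDC80 (0.0083). Differences not called also changed sign, as for FGFR3 without H929 (-0.36) or MM1S (-0.69), PRDM1 without H929 (-0.31) or RPMI-8226 (-0.03), IRF4 without OPM2 (-0.33) or MM1S (-0.04) and BCL2L11 without RPMI-8226 (0.05). The cause was not tested.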
